A study of Mus musculus with 16 samples.

Results

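Granzymes are serine proteases that cytotoxic T cells and natural killer (NK) cells store in granules together with perforin. When a granule is released onto a target cell, perforin, encoded by Prf1, forms pores through which granzymes reach the cytosol and cleave proteins there. Granzyme B cleaves caspases and Bid and is the best known killer protease, granzyme A acts through other substrates, and the mouse carries further granzymes, C to G, in the same gene cluster as granzyme B, which are known from activated killer lymphocytes. Here the 10 genes Gzma, Gzmb, Gzmc, Gzmd, Gzme, Gzmf, Gzmg, Gzmk, Gzmm and Prf1 were described in tumor RNA of 16 mice, out of 21959 genes listed. The 10 genes were chosen by name with results of these data already known, above all that Gzmc to Gzmg exceeded their control level under the combination. That comparison is therefore a description, with no p-value, and nothing is read from its counts of calls.

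The mice were C57BL/6 males, 6 weeks old when MC38 colon adenocarcinoma cells were injected into the hemispleen, and RNA came from the liver metastases. The 4 groups of 4 mice received PBS (control), the TGF-β receptor I (ALK5) inhibitor SB525334 in CMC-Na by oral gavage at 20 mg/kg daily, the antibody KN046 against PD-L1 and CTLA-4 intraperitoneally at 10 mg/kg, or both agents (combination). All groups carried the same injected cell line. Bulk RNA holds tumor, liver and immune transcripts together, so fewer cells of a type and less RNA per cell cannot be told apart. Total counts lay between 18368994 and 23877131 per mouse. The levels are CPM, counts relative to the scaled size of the library, and the genes are rare: a mouse held between 131 and 1367 counts over all 10. Control mice 1 and 2, and control mice 3 and 4, were each other's near copies, with a median chi-square over genes of 1.25 and 0.956, against 8.66 to 9.40 for the other control pairs and 2.82 to 18.7 in the other groups. In these 2 pairs 24.8% and 18.1% of genes lay past the 95% point of the chi-square distribution, so they still differed beyond counting noise. They were kept as 4 mice, and calls against control and in the interaction are also given with each pair merged to 1 sample.

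Of the genes, 6 form 1 cluster on the minus strand of chromosome 14 (GRCm39, 56355083 to 56499717), in the order Gzme, Gzmd, Gzmg, Gzmf, Gzmc and Gzmb. Gzma and Gzmk lie on chromosome 13 (113230355 to 113237524 and 113308142 to 113362442), and Gzmm and Prf1 on chromosome 10 (79524854 to 79531095 and 61133546 to 61140461). The cluster genes are close copies. Over the coding sequence, Gzmd and Gzme had 94.8% of paired bases in common, the 10 pairs among Gzmc to Gzmg 75.7% to 94.8%, and Gzmb 71.7% to 78.0% with those 5 genes. Pairs with Gzma, Gzmk or Gzmm reached at most 66.2%.

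**Figure D1:**
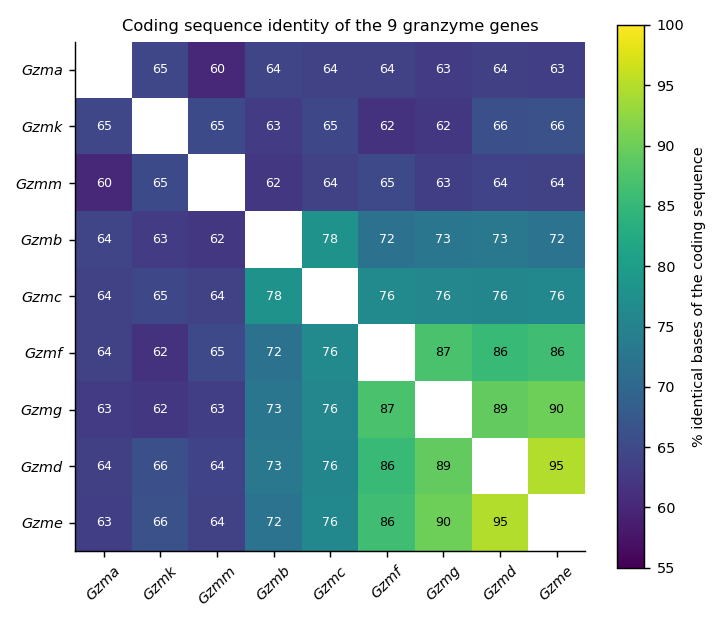
Percent of identical bases between the coding sequences of the 9 granzyme genes (GENCODE M39 canonical transcripts), with both axes listing the genes and the colour giving the percent. Gzmd, Gzme, Gzmf and Gzmg form the block of closest copies, up to 94.8%, and Gzma, Gzmk and Gzmm share at most 66.2% with any other granzyme.

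The likeness is shown by 60 coding bases around the codon of the active-site serine position, which cross from exon 4 into exon 5 in all 6 cluster genes (Gzmd: chr14:56367237-56367677, minus strand, the intron included in these limits; coding bases 595 to 654). Capitals mark the bases that differ from Gzmd, of which Gzme has 4, Gzmg 9, Gzmf 11, Gzmb 25 and Gzmc 26.
Gzmd: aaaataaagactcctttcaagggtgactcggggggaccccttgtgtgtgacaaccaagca
Gzme: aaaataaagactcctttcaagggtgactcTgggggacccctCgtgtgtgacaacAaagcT
Gzmg: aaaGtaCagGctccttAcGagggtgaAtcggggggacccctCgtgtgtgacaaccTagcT
Gzmf: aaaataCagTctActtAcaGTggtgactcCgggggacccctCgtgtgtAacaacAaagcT
Gzmb: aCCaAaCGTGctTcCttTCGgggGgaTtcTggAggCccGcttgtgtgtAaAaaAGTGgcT
Gzmc: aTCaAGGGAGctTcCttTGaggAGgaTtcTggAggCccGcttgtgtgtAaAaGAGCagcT

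Because reads from such copies can be split or lost between genes, the stretches that cannot be told apart were counted. Of all 50-base windows of the transcript, 23.1% in Gzmd, 20.7% in Gzme, 19.8% in Gzmg, 7.36% in Gzmf and 3.95% in Gzmc occurred without a mismatch in another granzyme gene. With 100-base windows the share was at most 0.247%, and with 150-base windows it was 0. Gzmb, Gzma, Gzmk, Gzmm and Prf1 shared no 50-base window. The single values of Gzmd, Gzme, Gzmg and, less, Gzmf and Gzmc are therefore uncertain, and their sum per mouse is given beside them.

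The promoters of Gzmc to Gzmg were alike as well. Over the RefSeq promoter windows (GRCm38.p6, whose coordinates differ from those of GRCm39), the 10 pairs shared 84.4% to 95.6% of paired bases, and the Gzmb promoter shared 55.5% to 62.5% with them. Whether the promoters bear on the RNA levels was not tested. The 80 bases below have nearly the same form in Gzmc to Gzmg. In each promoter the stretch was placed by a RUNX-type match, not by alignment, so the Gzmb bases need not correspond to the others. Each stretch, given with its GRCm38.p6 position, begins 3 bases before that match (TGTGGT, either strand). Capitals mark matches to the RUNX-type, CRE and AP-1 letters given after the sequences.
Gzmc (chr14:56234689-56234768, minus strand): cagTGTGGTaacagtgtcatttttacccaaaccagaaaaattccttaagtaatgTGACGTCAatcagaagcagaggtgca
Gzmf (chr14:56211464-56211543, minus strand): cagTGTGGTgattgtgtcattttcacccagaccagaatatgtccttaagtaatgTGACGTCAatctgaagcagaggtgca
Gzmg (chr14:56159631-56159710, minus strand): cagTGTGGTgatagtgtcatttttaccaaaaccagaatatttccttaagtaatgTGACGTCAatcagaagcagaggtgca
Gzmd (chr14:56132629-56132708, minus strand): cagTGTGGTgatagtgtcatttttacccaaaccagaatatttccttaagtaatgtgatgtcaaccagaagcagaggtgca
Gzme (chr14:56120662-56120741, minus strand): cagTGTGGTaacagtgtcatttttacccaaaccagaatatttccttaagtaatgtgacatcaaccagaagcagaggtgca
Gzmb (chr14:56262351-56262430, minus strand): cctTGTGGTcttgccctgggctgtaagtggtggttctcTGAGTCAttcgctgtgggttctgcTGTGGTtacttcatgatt

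RUNX-type letters occurred in 9 of the 11 member promoters in the RefSeq table (Gzmm has 2 entries), against 16.8% of all 32851 promoters of the same 300 bases. The CRE half-site TGACG was in 5 of 11, against 20.8%, and its palindrome TGACGTCA, which contains the half-site on both strands, was in Gzmc, Gzmf and Gzmg, against 1.79%. AP-1 letters (TGANTCA) were found in Gzmb alone, against 7.81% of all promoters. STAT letters (TTCNNNGAA) were in Gzmb and Gzmm, against 8.30%, and T-box letters (GGTGTGA) in Gzmk and Gzmm, against 3.98%. These are matches of letters on either strand, not measured binding sites. The promoters of Gzmc to Gzmg are close copies, so their matches are not independent of each other and these counts do not measure an enrichment.

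Per kilobase of exon, Gzmb was the most abundant granzyme transcript in every group, with a mean of 7.19 CPM per kb in control, 3.67 with SB525334, 1.70 with KN046 alone and 11.3 with the combination. In control the next were Prf1 at 2.28, Gzma at 1.68, Gzmm at 1.23 and Gzmc at 1.17 CPM per kb, and Gzmd, Gzmf, Gzmg and Gzme came last at 0.466, 0.315, 0.302 and 0.297. With the combination, Gzmd at 4.91, Gzmc at 4.51 and Gzmg at 4.34 CPM per kb stood next to Gzmb, above Prf1 at 3.22. Gzmd and Gzmg, among the last 4 in control, thus stood above Prf1 with the combination, whereas Gzmf at 2.08 and Gzme at 1.96 CPM per kb stayed below Prf1.

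Gzmb and Prf1, the classical killing pair, had their lowest group mean with KN046 alone and their highest with the combination. Gzmb was 9.75, 10.7, 9.79 and 11.1 CPM in control mice 1 to 4, and 8.27, 1.91, 4.73 and 6.16 CPM with SB525334. It was 3.62, 3.6, 0.894 and 1.66 CPM with KN046, and 16.8, 6.68, 12.8 and 28.8 CPM with the combination. All 4 KN046 mice lay below all control and all combination mice, whereas combination mouse 2 lay below every control mouse and below SB525334 mouse 1. Prf1 was 7.13, 6.63, 5.83 and 4.60 CPM in control, 3.44, 1.99, 1.94 and 6.20 with SB525334, 2.24, 2.58, 1.34 and 2.60 with KN046, and 9.81, 5.35, 5.35 and 13.6 with the combination. The KN046 mice again lay below every control and every combination mouse. For both genes they overlapped the SB525334 mice. Prf1 in combination mice 2 and 3 lay below control mice 1 to 3.

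Gzmc to Gzmg showed another pattern: the 4 combination mice lay above all 12 other mice for each of the 5 genes. They did so in 0.43% of all genes tested, and the 5 genes were chosen with their difference from control known. Gzmc was 5.03, 3.86, 6.11 and 5.42 CPM with the combination, against 0.862 to 1.89 in control, 1.04 to 2.28 with SB525334 and 0.486 to 2.72 with KN046. Gzmd was 3.34, 4.14, 7.59 and 3.87 CPM with the combination and at most 2.51 elsewhere. Gzmg was 2.77, 5.08, 4.86 and 3.06 CPM and at most 2.03 elsewhere. These are small numbers of reads, since the 3 other groups held at most 53 counts of any of the 5 genes in a mouse.

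Gzme reached 1.69, 0.717, 2.84 and 1.93 CPM with the combination and at most 0.663 elsewhere, and Gzmf 1.59, 2.37, 2.46 and 1.23 CPM against at most 0.959. Gzme passed the filter on low counts only because of its counts in the combination mice, so a difference there was built into its being tested. Among the single-agent mice, KN046 mouse 1 was the highest for all 5 genes of the KN046 group, at 2.51 CPM for Gzmd and 2.03 for Gzmg. In SB525334 mouse 2 no count of Gzme, Gzmf or Gzmg was found, where 3 counts would have been 0.119 CPM.

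Summed over Gzmc to Gzmg, which does not depend on how reads were split within the cluster, the level was 14.4, 16.2, 23.9 and 15.5 CPM with the combination. It was 3.28, 3.41, 1.67 and 2.09 CPM in control, 5.51, 1.23, 2.67 and 3.62 with SB525334 and 8.74, 1.31, 3.30 and 1.51 with KN046. The mean of the combination mice was 5.37 times that of the SB525334 mice and 4.71 times that of the KN046 mice, and the combination mice did not overlap either group. The summed genes were chosen with their high level under the combination known, and Gzme passed the filter only through it. Both ratios and the gap were thus fixed in part by that choice, and a sum has no share over all genes beside it.

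Gzma, Gzmk and Gzmm did not share either pattern in full, but Gzmk shared the low level with KN046 alone. Gzma, the other abundant granzyme of cytotoxic lymphocytes, was highest in control, at 2.60 ± 0.427 CPM (SD, n = 4), against 0.759 ± 0.497 for SB525334, 1.63 ± 0.992 for KN046 and 1.65 ± 1.31 with the combination. In the combination group Gzma split the mice, at 2.26 and 3.21 CPM in mice 1 and 4 and 0.497 and 0.655 in mice 2 and 3. Gzmk, known from effector memory T cells, was 1.33 ± 0.197 CPM in control, 0.940 ± 0.572 with SB525334, 0.396 ± 0.309 with KN046 alone and 1.13 ± 0.143 with the combination (SD, n = 4). As for Gzmb and Prf1, all KN046 mice, at most 0.729 CPM, lay below all control mice (from 1.15) and all combination mice (from 0.983). Unlike theirs, the mean of Gzmk was highest in control. Gzmm, known from NK and innate-like lymphocytes, varied least between groups, from 1.15 ± 0.414 CPM with KN046 to 1.80 ± 0.432 in control (SD, n = 4).

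**Figure D2:**
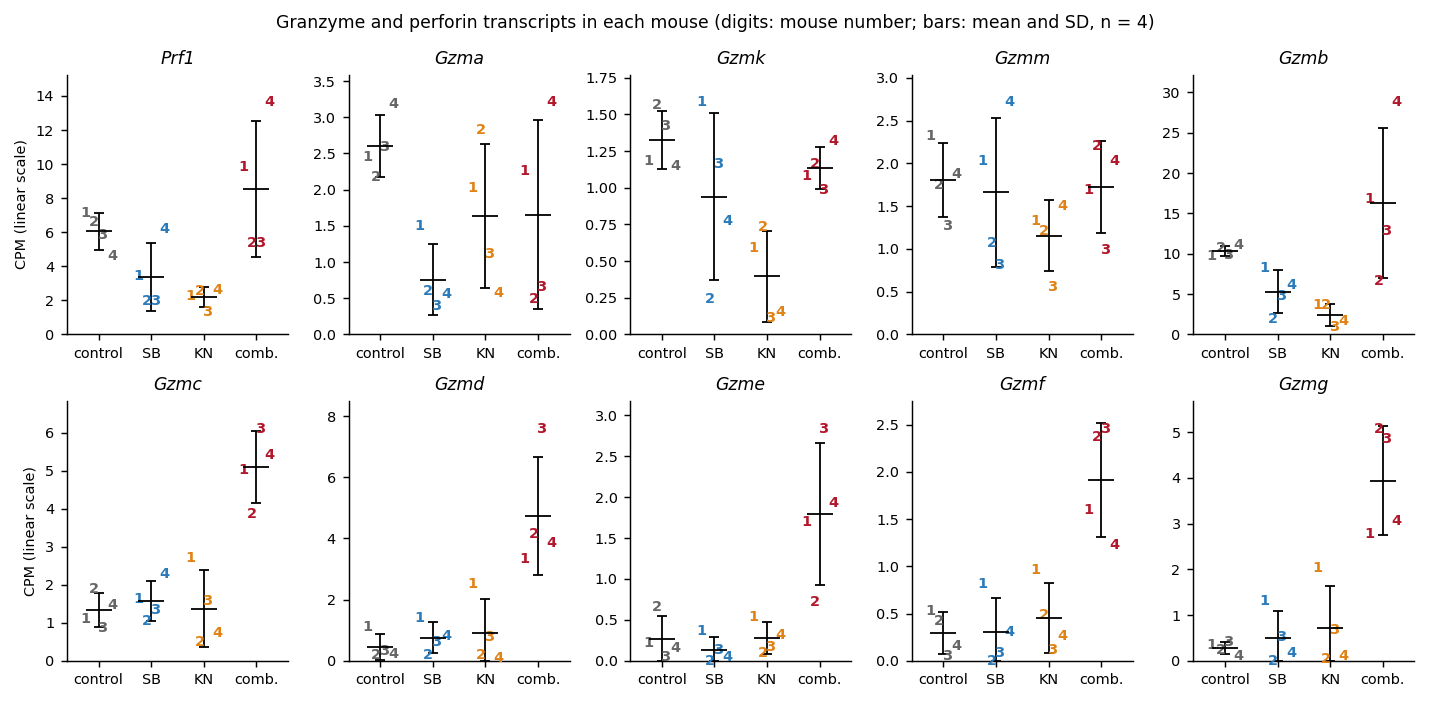
CPM of the 10 genes on linear axes from 0, 1 panel a gene, with each digit a mouse of that number and bars giving the mean and SD of 4 mice (SD bars stop at 0). The means of Gzmb and Prf1 are lowest in the KN046 group, with mice that overlap those of SB525334. Gzmc to Gzmg are higher in all 4 combination mice than in the other 12. The same holds for 0.43% of all genes tested, and these genes were chosen with their difference from control known.

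The first question was what each agent did alone. Against control, KN046 lowered 2 of the 10 genes, where 2.4% of the 13968 genes tested were called lower, and raised none. Gzmb fell by 2.07 (log2 scale, standard error 0.47, adjusted p = 0.0289, edgeR) and Prf1 fell by 1.46 (standard error 0.39, adjusted p = 0.0458, edgeR). Gzmk had a log2 difference of -1.72 (standard error 0.53, adjusted p = 0.0745). For these 3 genes all KN046 mice lay below all control mice, as did 6.65% of all genes tested. Both calls rested on the 4 control mice counting as separate: with the near-identical pairs merged, adjusted p was 0.212 for Gzmb and 0.243 for Prf1, and with 1 mouse left out in turn each was past the threshold in 1 of 8 fits, the one without KN046 mouse 2. Gzmc, Gzmd, Gzme, Gzmf and Gzmg had log2 differences between 0.00 and 1.34 with standard errors of 0.44 to 0.95, and none was past the threshold.

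Against control, SB525334 changed none of the 10 genes at an adjusted p under 0.05 by edgeR, where 9.61% of all genes were called in either direction. At an unadjusted p under 0.05 there were 3, and DESeq2 called 1. With the control pairs merged none was called. Gzma had the largest difference, -1.77 (log2 scale, standard error 0.58, adjusted p = 0.0655), Gzmb was at -0.97 (standard error 0.45, adjusted p = 0.242) and Prf1 at -0.84 (standard error 0.37, adjusted p = 0.226). For Gzma and Gzmb all SB525334 mice lay below all control mice, as did 13.3% of all genes tested. Between the single agents, none of the 10 genes was called by edgeR or by DESeq2 at an adjusted p under 0.05, against 20% of all genes, and 2 had an unadjusted p under 0.05. They were Gzmb, higher by 1.10 on the log2 scale with SB525334 than with KN046 (standard error 0.47, adjusted p = 0.106), and Gzmk, higher by 1.21 (standard error 0.54, adjusted p = 0.119).

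The next question was whether the combination differed from each agent alone. Against KN046, 7 of the 10 genes rose with the combination and none fell, where 9.89% of all genes were called higher. Gzme was tested only because of its combination counts, and without it 6 of 9 rose. The median log2 difference was 2.00 over the 10 genes and 1.96 without Gzme, against 0.00 over all genes. Gzmb rose by 2.73 (log2 scale, standard error 0.48, adjusted p = 0.00043) and Prf1 by 1.96 (standard error 0.39, adjusted p = 0.00138). Gzmc rose by 1.90 (standard error 0.43, adjusted p = 0.00383), and Gzmd by 2.40, Gzmg by 2.47 and Gzmf by 2.05, with adjusted p of 0.0243, 0.0384 and 0.0499. Gzme had a difference of 2.68 (adjusted p = 0.0121, and 0.0144 with no low-count filter). Gzmk was higher by 1.49 (standard error 0.54, adjusted p = 0.0523), and Gzmm and Gzma had differences of 0.58 (standard error 0.41) and 0.02 (standard error 0.56) that were within the spread of the mice. In 8 of the 10 genes all combination mice lay above all KN046 mice, as did 7.9% of all genes tested. Gzmb, Prf1 and Gzmc stayed past the threshold in all 8 fits that left out 1 mouse, Gzmd in 6, Gzmg in 2 and Gzmf in 1. Without KN046 mouse 3, or without combination mouse 3, 4 of the 10 genes were called.

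Against SB525334, 2 of the 10 genes, Gzmc and Gzme, were called higher with the combination, as were 0.544% of all genes. Without Gzme, whose combination counts alone brought it into the test, it was 1 of 9. Gzmc rose by 1.70 (log2 scale, standard error 0.42, adjusted p = 0.0244), and Gzme had a difference of 3.73 (standard error 0.76, adjusted p = 0.00603, and 0.00595 with no low-count filter). Another 5 were just outside the threshold: Gzmb at 1.63 (standard error 0.45, adjusted p = 0.0550), Gzmd at 2.65, Prf1 at 1.33, Gzmf at 2.67 and Gzmg at 2.98, with adjusted p of 0.0559, 0.0619, 0.0643 and 0.0643. In 5 genes, Gzmc to Gzmg, all combination mice lay above all SB525334 mice, as did 2.43% of all genes tested. With 1 mouse left out in turn, 2 of 8 fits called Gzmc, and the number of genes called moved between 1 (without SB525334 mouse 2 or 3, or without combination mouse 1 or 4) and 4 (without SB525334 mouse 1, or without combination mouse 2). DESeq2 called 6. The comparisons of the combination with each agent share the combination mice and are not independent of each other, nor of the difference from control with which the genes were chosen.

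**Figure D3:**
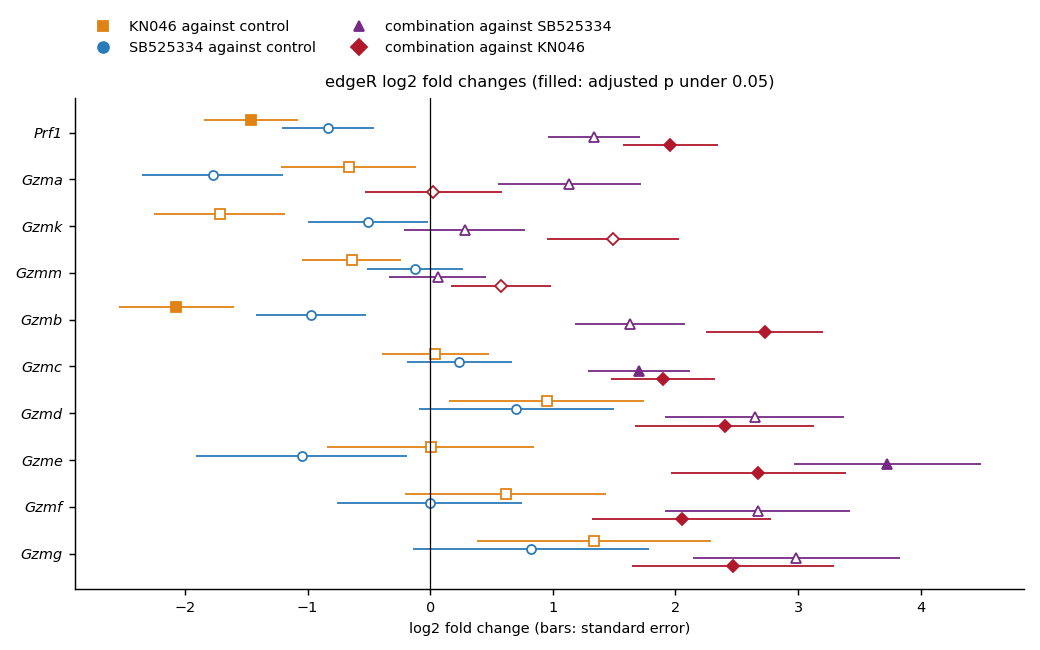
edgeR log2 fold changes of the 10 genes (x axis; bars are standard errors, n = 4 mice a group) in 4 comparisons, with filled symbols for an adjusted p under 0.05. Gzmb and Prf1 lie left of 0 for KN046 against control, at -2.07 and -1.46, and right of 0 for the combination against KN046, at 2.73 and 1.96.

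Whether SB525334 acted differently with KN046 than without it was asked by the interaction of both agents. All 10 genes had a value above 0, and 2 were called positive, where 1.73% of all genes were. For Gzmb the SB525334 difference was greater by 3.70 on the log2 scale in mice that also received KN046 (standard error 0.65, adjusted p = 0.00251), and for Prf1 by 2.80 (standard error 0.54, adjusted p = 0.00511). Both were past the threshold in all 16 fits that left out 1 mouse, and with the control pairs merged. Gzme was at 3.72 (adjusted p = 0.0740), and Gzmc, Gzmd, Gzmf and Gzmg lay between 1.65 and 2.06, with standard errors of 0.60 to 1.29. None of the other 8 genes was past the threshold. The interaction holds the KN046 difference from control with the opposite sign and rests on the same mice, so its calls for Gzmb and Prf1 are not independent of their fall with KN046.

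The combination against control is the comparison with which the genes were chosen, and its values are a description. The log2 difference was 1.94 for Gzmc, 3.35 for Gzmd, 2.68 for Gzme, 2.66 for Gzmf and 3.81 for Gzmg, the 5 genes called higher, where 1.37% of all genes were. As the genes were chosen on this difference, nothing is read from that count. Gzmd at 0.449 and Gzmg at 0.274 CPM in control had the largest differences. Gzmb had a difference of 0.66, Prf1 of 0.50, Gzmm of -0.06, Gzmk of -0.22 and Gzma of -0.64. The 4 combination mice lay above the other 12 in 5 of the 10 genes, and in 0.43% of all genes tested, a count that the choice of the genes also fixed in part.

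The share of each gene in the counts of the 10 genes does not depend on library size or on the counts that hepatocyte genes took. Whether it changes with the amount of liver tissue in a sample was not tested. Gzmc to Gzmg together took 7.42% to 13.0% of these counts in control, 17.5% to 24.7% with SB525334, 10.7% to 47.1% with KN046 and 24.1% to 53.4% with the combination. Control mice lay below all SB525334 and all combination mice. The KN046 mice were spread widely: the share was 47.1% (95% Wilson interval 41.9% to 52.4%) in mouse 1 and 45.04% (36.8% to 53.6%) in mouse 3, against 10.7% (7.47% to 15.1%) in mouse 2 and 18.8% (13.4% to 25.7%) in mouse 4. These intervals cover counting error only. Within the combination group, mice 2 and 3 had shares of 50.4% and 53.4%, and mice 1 and 4, which had the most Gzmb, 31.3% and 24.1%.

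**Figure D4:**
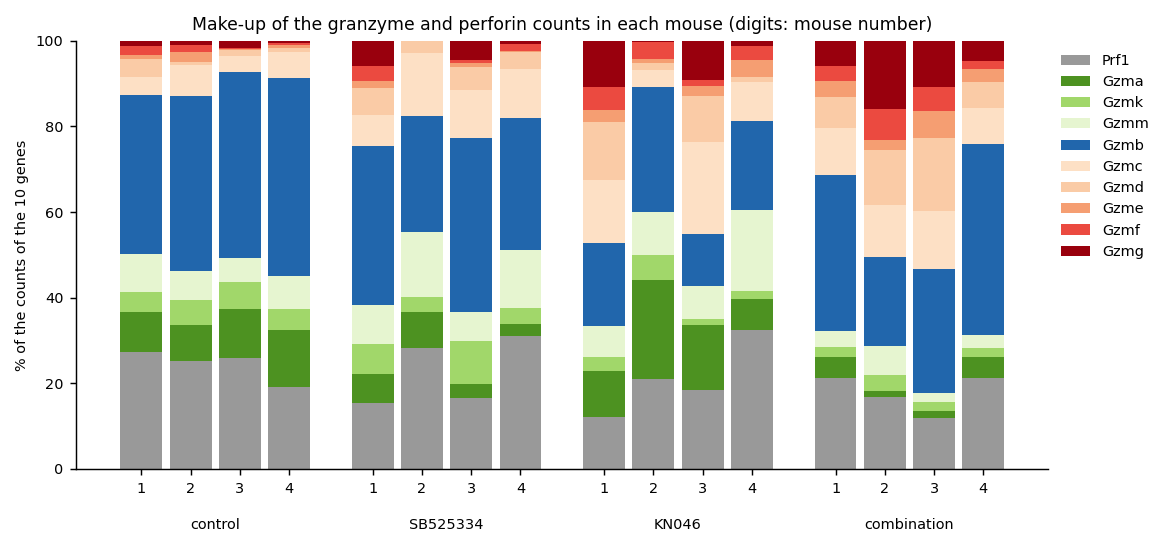
Share of each gene (% of the counts of the 10 genes, stacked to 100) in each of the 16 mice, with digits giving the mouse and labels the group. The part of Gzmc to Gzmg (reds) is 7.42% to 13.0% in control and 24.1% to 53.4% with the combination, and varies from 10.7% to 47.1% among the KN046 mice.

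T cell transcripts moved along with Gzmb and Prf1. The 11 genes of a T cell list (among them Cd3e, Cd4 and Cd8a) summed to 44.2 to 55.7 CPM in control, 24.3 to 43.6 with SB525334, 10.8 to 25.7 with KN046 and 38.0 to 83.6 with the combination. Of the 11, 7 fell with KN046 against control, where 2.4% of all genes did, but with the control pairs merged edgeR called none of them, nor any other gene, and 9 had an unadjusted p under 0.05. All 11 rose with the combination against KN046, where 9.89% of all genes did. In the interaction 10 of 11 were called positive, where 1.73% of all genes were, and 6 of 11 with merged pairs, where 0.653% were. None was called for the combination against SB525334, where 11 of 11 differences were above 0. Cd8a, which encodes a chain of the CD8 coreceptor, had a mean of 10.4 CPM in control, 7.46 with SB525334, 3.87 with KN046 alone and 10.7 with the combination. Over the 16 mice, Gzmb and this sum had a Spearman rho of 0.915 (Pearson r 0.938, or 0.917 without the 2 mice farthest from the median sum) and Prf1 one of 0.894 (r 0.939, or 0.893), but the sum of Gzmc to Gzmg one of 0.332 (r 0.440, or 0.294). The points share their library and its scaling, and the values describe these 16 mice. They pool groups whose T cell sums differ, so they hold the differences between groups, and values within groups are not given.

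Relative to the T cell sum, Gzmb was 0.176 to 0.344 with the combination and 0.0829 to 0.253 with KN046, so these groups overlapped. Prf1 was 0.122 to 0.163 with the combination and 0.1004 to 0.156 with KN046. Gzmc to Gzmg were 0.185 to 0.544 of the T cell sum with the combination, above all control mice (0.0368 to 0.0658) and all SB525334 mice (0.0438 to 0.127), but KN046 mice 1 and 3 reached 0.610 and 0.306. With log2 of the T cell sum as a covariate, a fit chosen after the data had been seen, none of the 10 genes was called for the combination against KN046. Over all 13968 genes this fit called 440 higher there. The log2 difference was 0.49 (standard error 0.67) for Gzmb and -0.01 (standard error 0.53) for Prf1. It was 2.39 (standard error 0.89, adjusted p = 0.0912) for Gzmc, 3.45 (adjusted p = 0.137) for Gzmd and 3.69 (adjusted p = 0.146) for Gzmg, above the differences without the covariate, and Gzme and Gzmf were below them (1.74 for Gzme). The standard errors of the 10 genes were 1.82 times as large at the median. Against SB525334 Gzme, tested only because of its combination counts, was called (3.34, adjusted p = 0.0495), where 68 of 13968 genes were called higher. Gzmc was at 1.91 (adjusted p = 0.0532). The calls of Gzmb and Prf1 against control with KN046 and in the interaction were lost in the same fit. That fit called 0 of 13968 genes for KN046 against control, where 335 were called lower without the covariate. In the interaction it called 3 higher, against 242 without the covariate. The T cell sum of the KN046 mice did not overlap that of the control or combination mice. T cell content and treatment therefore cannot be told apart in these comparisons.

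**Figure D5:**
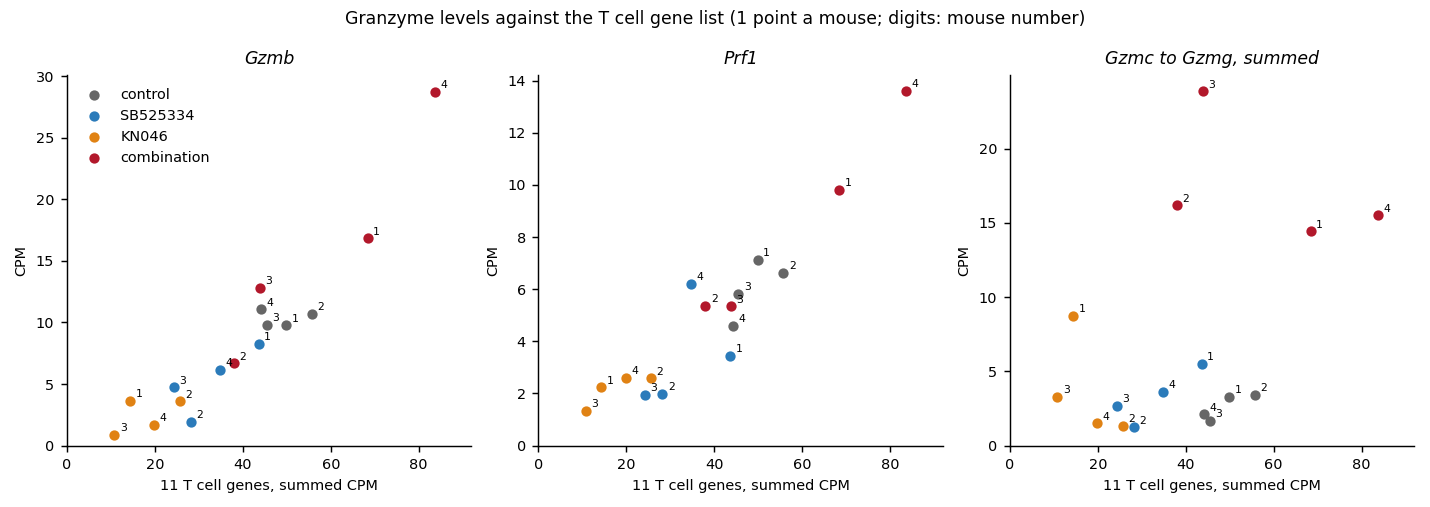
CPM of Gzmb, Prf1 and the sum of Gzmc to Gzmg (y axes) against the summed CPM of 11 T cell genes (x axis), 1 point a mouse, digits giving the mouse and colours the group. Over all 16 mice, with the groups pooled, Gzmb and Prf1 rise with the T cell sum (rho 0.915 and 0.894). For Gzmc to Gzmg, chosen with their difference from control known, the 4 combination mice lie above the others.

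Among other cells that can hold granzymes, NK cell transcripts were few. In an 11-gene NK cell list, Klra4 alone took 78.3% to 95.1% of the summed level, and the defining genes Ncr1 and Klrb1c had group means of 0.135 to 0.338 and 0.222 to 0.321 CPM. Without Klra4, a choice made after the data had been seen, the list summed to 9.05 to 9.75 CPM in control, 3.53 to 7.73 with SB525334, 2.74 to 7.54 with KN046 and 3.92 to 10.7 with the combination. Of its 6 genes tested, 2 fell with KN046 against control, where 2.4% of all genes did, and none with the control pairs merged (edgeR, 3 of 8 tested at an unadjusted p under 0.05). Klre1 alone rose with the combination against KN046, by 2.10 on the log2 scale (adjusted p = 0.00920), and 1 of 6 is near the 9.89% of all genes. In the interaction 2 of the 6 were called positive, where 1.73% of all genes were. With merged pairs it was 1 of 8, where 0.653% were. Mast cell and basophil genes, whose proteases neighbor the granzyme cluster, summed to at most 3.72 CPM in any mouse, and none of the 10 had enough counts to be tested. The part of NK cells in the result was not tested.

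Markers of other immune cells moved in the same comparisons. The 8 macrophage genes summed to 1693 to 1820 CPM in control, 1565 to 2476 with SB525334, 815 to 1722 with KN046 and 1669 to 2414 with the combination, and 5 of 8 rose with the combination against KN046 (9.89% of all genes) and none against SB525334. Among them Lyz2, the lysozyme of myeloid cells, had a log2 difference of 1.16 (adjusted p = 0.00121) and Cd68 one of 0.52 (adjusted p = 0.0116). The 6 B cell genes summed to 2.07 to 57.8 CPM with the combination and at most 11.04 CPM elsewhere, and 4 rose against SB525334 (0.544% of all genes) and 1 against KN046. The 7 neutrophil genes summed to 105 to 121 CPM in control, 8.54 to 19.9 with SB525334, 16.7 to 26.8 with KN046 and 5.84 to 151 with the combination, and 2 rose against SB525334 and none against KN046. In the interaction 5 of the 7 neutrophil genes were called positive, where 1.73% of all genes were. With the control pairs merged it was 2 of 7, where 0.653% were. None of the macrophage or B cell genes was called there. The part of these cells in the granzyme differences was not tested.

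Liver RNA also differed between the groups. The 38 hepatocyte genes summed to 25504 to 32807 CPM in control, 14782 to 32074 with KN046, 1017 to 3624 with SB525334 and 92.6 to 112 with the combination, and all 38 were lower with the combination than with either agent. With log2 of this sum as a covariate, also chosen after the data had been seen, none of the 10 genes was called for the combination against either agent. That fit called 0 of all 13968 genes against KN046, and 0 higher and 1 lower against SB525334. The standard errors were then 6.52 times (KN046) and 3.92 times (SB525334) as large at the median of the 10 genes, and the sum did not overlap between these groups, so liver content and treatment cannot be told apart. Scaling without the hepatocyte genes gave 8 of the 10 genes called against KN046 and 2 against SB525334.

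The partners of granzymes were taken from lists of the pathway. Of 16 genes of granule storage and release that were tested, 5 rose and none fell with the combination against KN046, where 9.89% of all genes rose and the median log2 difference of the list was 0.21, and none was called against SB525334. Nkg7, a granule membrane protein of cytotoxic cells, rose by 2.21 (log2 scale, standard error 0.33, adjusted p = 6.8e-05), and Cst7, an inhibitor of granule cathepsins, by 1.63 (standard error 0.38, adjusted p = 0.00544). Ctsc, which encodes the cathepsin that activates granzymes, had a mean of 131 CPM with KN046 and 224 with the combination (log2 difference 0.77, standard error 0.31, adjusted p = 0.0741). Srgn, the proteoglycan core of the granule, had means of 59.8 and 66.8 CPM.

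Of the 5 genes for serpins that inhibit granzymes or their relatives, 3 rose and 1 fell with the combination against KN046, where 9.89% of all genes rose and 14.5% fell. Against SB525334, 2 rose and 1 fell, where 0.544% and 3.03% of all genes did. Serpinb9, an inhibitor of granzyme B, was 28.6 ± 1.056 CPM in control, 24.9 ± 3.39 with SB525334, 16.6 ± 2.98 with KN046 alone and 38.7 ± 5.64 with the combination (SD, n = 4). It rose with the combination against KN046 by 1.22 (log2 scale, standard error 0.14, adjusted p = 3.2e-06) and against SB525334 by 0.64 (standard error 0.14, adjusted p = 0.00850). Serpinb6b was 27.3 ± 2.196 CPM with KN046 and 53.2 ± 2.39 with the combination (SD, n = 4), and rose by 0.96 and 0.71 against KN046 and SB525334 (standard error 0.10 each, adjusted p = 7.69e-07 and 0.000134). Serpina3n, an acute-phase serpin of the liver that also binds granzyme B, was lower instead, with log2 differences of -5.02 and -2.86, and the hepatocyte genes were lower in the same comparisons.

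Of 14 tested genes for granzyme targets, 2 rose with the combination against KN046, a share near the 9.89% of all genes, and none was called against SB525334. One of them was Bid, which granzyme B cleaves to engage mitochondria, at 37.5 ± 6.07 CPM with KN046 and 59.95 ± 2.44 with the combination (SD, n = 4, log2 difference 0.68, adjusted p = 0.000274). Of 20 regulators of granzyme expression, 7 rose with the combination against KN046, where 9.89% of all genes did, and none against SB525334, where 0.544% did. Tbx21, the transcription factor T-bet, rose by 2.16 (log2 scale, standard error 0.37, adjusted p = 0.000327) and Il2ra, a chain of the interleukin-2 receptor, by 1.84 (standard error 0.59, adjusted p = 0.0331). Eomes, a related T-box factor, had means of 4.46 and 6.85 CPM (log2 difference 0.61, standard error 0.26, adjusted p = 0.0905), and Prdm1 of 5.19 and 4.99 CPM. Of 7 other cytotoxic effector genes, 3 rose against KN046 (9.89% of all genes), namely Ltb by 2.37, Ccl5 by 1.44 and Fasl, the ligand of the death receptor Fas, by 1.53 on the log2 scale (adjusted p = 0.00200, 0.00316 and 0.0322).

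Gzmc to Gzmg also varied together within the groups. Over the 16 mice, the Spearman rho of their 10 pairs was 0.63 to 0.90, and after the group means had been taken out the correlation of log2 levels was 0.36 to 0.86. Between these and the 5 other genes the values were -0.07 to 0.58, and -0.16 to 0.63 within groups. For pairs among the 5 other genes rho was 0.15 to 0.80. Within groups their values ran from 0.24 for Gzma and Gzmm to 0.78 for Gzmb and Gzmk. Varying together within groups was thus not particular to Gzmc to Gzmg. Shared reads and shared library scaling enter these values. Among 12831 other genes with a mean of at least 1 CPM, those whose levels ran most like Gzmb over the 16 mice were Cd3g, Nkg7, Coro1a, Tbx21, Gimap7, Lck, Ltb and Dusp19, with a Spearman rho of 0.91 to 0.94. Those most like Gzmc were Spin4, Thbs2, Tdrd7, Crbn, Arf6, Pld3, Pramel12 and Npc2, with lower values of 0.77 to 0.84.

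Within 300 kb of the cluster lay 17 other genes, of which 7 had enough counts to be tested. None of the 7 was called by edgeR for the combination against KN046 or SB525334, where 9.89% and 0.544% of all genes were called higher, and 2 and 1 of the 7 had an unadjusted p under 0.05. They were Nfatc4, Nynrin, Cbln3, Khnyn, Sdr39u1, Ctsg and Cpap. Ctsg, which encodes cathepsin G of neutrophils and lies next to Gzme, was at 4.03 CPM in control, 0.0656 with SB525334, 0.143 with KN046 alone and 0.687 with the combination, a log2 difference of 2.25 from KN046 (adjusted p = 0.0735) and of 3.33 from SB525334 (adjusted p = 0.0771). The mast cell genes Cma1, Cma2, Mcpt1, Mcpt2, Mcpt4 and Mcpt8 had between 2 and 60 counts over all 16 mice, as did Rnf17 with 28, Atp12a had 1, and Mcpt9 and Gzmn had none.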

How the data were processed

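RNA of liver metastases from 16 mice was sequenced on an Illumina instrument. Per the methods and the submitters' processing notes, the authors used cutadapt 2.7 for trimming, HISAT2 2.2.1 for alignment (GRCm39) and HTSeq 2.0.4 for counting. The handling of strand and of reads with several alignments is not given in the sources used here. The authors deposited raw counts per gene, used here, and normalized values, named a score here, which are the raw counts divided by a size factor and rounded. A match of gene identifiers to GENCODE M39 gave symbols.

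The count test was edgeR 4.0.16 (R 4.3.3), after filterByExpr with a minimum count of 10 and TMM scaling, as 1 quasi-likelihood fit over the 4 groups of 4 mice, and Benjamini-Hochberg adjustment over the 13968 genes tested, with a threshold of 0.05. All 10 members passed the filter. The biological coefficient of variation was 20.1%. The standard error is the log2 fold change over the square root of F. The fit was tested on simulated data. Nothing states that the mice were processed separately, so p-values measure the spread between these samples. No group had all counts of a member at or under 3. Alternatives were DESeq2 1.42.0, also with the thresholds of the study (p under 0.05, fold change over 2), limma 3.58.1 on log2 of the normalized values + 1, other scalings and filters, the groups compared alone, the replicate number as a block, merged control pairs, each mouse left out and 2 covariates.

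The members, the lists and the tests were chosen with earlier results of these data known. The genes named were the 10 members, preset genes of each list, up to 3 genes of a list with the lowest adjusted p in the combination against each agent, neighbors within 300 kb of the cluster, and the 8 genes most like Gzmb and Gzmc. Coding sequences came from GENCODE M39 and promoters from RefSeq (GRCm38.p6). Same-numbered mice of different groups did not vary together (correlation of deviations -0.37 to 0.41, over 0.1 in 7 of 24 pairs).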

Additional observations from a re-analysis of the deposited data

Results flagged for a closer look

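Each member was looked at for a mouse far from the other 3 of its group, in 40 groups of 4 values, of which chance would give about 1 in 20. One stood out: Gzmd in control mouse 1, at 1.09 CPM against 0.189 to 0.304 CPM in the other control mice, from 25 counts against 4 to 6. Its near copy, control mouse 2, had 4 counts.

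The effect of SB525334 differed with and without KN046 for 2 members by the interaction test of edgeR. The difference between both effects was 3.70 on the log2 scale for Gzmb (adjusted p = 0.00251) and 2.80 for Prf1 (adjusted p = 0.00511). T cell genes moved in the same way, with 10 of 11 called positive by the same test (6 of 11 with the control pairs merged). So were 5 of 7 neutrophil genes, 3 of 7 other cytotoxic effector genes and 2 of 6 NK cell genes, where 1.73% of all genes were. With merged pairs it was 2 of 7, 1 of 8 and 1 of 8, where 0.653% were. None of the macrophage or B cell genes was called. With the T cell sum as a covariate neither Gzmb nor Prf1 was called, but that fit called 3 of all 13968 genes higher, against 242 without it. Its standard errors were 1.70 times as large at the median of the 10 genes. The part of T cells, or of other immune cells, in the difference of Gzmb and Prf1 was not tested.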

How the results depend on the processing

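Each count of the 10 genes called was recomputed under the alternatives. For the combination against KN046 (7 called) it stayed between 5 and 8 outside the covariate fits, and between 4 and 7 when 1 mouse was left out. With the T cell sum as a covariate it was 0, and with the hepatocyte sum 0. Against SB525334 (2 called) it was 6 with DESeq2, 8 with DESeq2 and the thresholds of the study, 5 with limma and 4 with no filter. It was 4 with the compared groups alone, 1 with a mean of at least 1 CPM, 1 with the T cell sum and 0 with the hepatocyte sum. With 1 mouse left out it was 1 to 4. The call with the T cell sum was Gzme, tested only because of its combination counts. For the interaction (2 called) it was 6 with the thresholds of the study and 0 with either sum, and 2 to 3 with 1 mouse left out. KN046 against control (2 called) gave 0 with merged control pairs, 1 with the compared groups alone, 0 with the T cell sum and 0 to 3 with 1 mouse left out. SB525334 against control (0 called) gave 1 with DESeq2, 1 with the thresholds of the study, 1 with limma, 1 with the compared groups alone and 0 to 1 with 1 mouse left out. SB525334 against KN046 (0 called) gave 2 with the thresholds of the study, 1 with the T cell sum and 0 to 2 with 1 mouse left out. The combination against control (5 called, on which the genes were chosen) gave 2 with merged pairs, 3 with a mean of at least 1 CPM, 0 with the hepatocyte sum and 3 to 5 with 1 mouse left out. The cause was not tested, save that the mean of at least 1 CPM leaves fewer of the 10 genes to test. Both sums were chosen as covariates with the data already seen. With the hepatocyte sum 0 of all 13968 genes were called for the combination against KN046 or against control, and 0 higher in the interaction. With the T cell sum 0 were called for KN046 against control. In the interaction 3 were called higher with that sum, and for the combination against KN046 440. Merged pairs were not run where no control mouse was compared.

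The replicate number as a block gave 1 of 10 for SB525334 against control and 6 of 10 for the combination against SB525334, and the other counts of calls did not change. The mice share only a number, and 6 of 16 were closest to a mouse with their own number.

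Outside the covariate fits, signs changed only for differences that had not been called. With the hepatocyte sum, 7 of 10 signs changed for the combination against KN046. With SB525334 against control Gzmf (-0.01 on the log2 scale) was at 0.039 with DESeq2 under either threshold, 0.0066 with RLE size factors, 0.0074 with merged pairs, 0.024 without hepatocyte genes in the scaling and 0.0057 with no filter. With KN046 against control Gzmc was at -0.15 with limma and -0.0765 with the block, and Gzme at -0.14 with the block. Gzmd between the single agents was at 0.34 with limma and 0.058 with the block, and Gzma for the combination against KN046 at -0.18 and -0.11. With 1 mouse left out, SB525334 against control ran from -1.17 to 0.46 for Gzmf, -0.27 to 1.25 for Gzmg and -0.47 to 0.11 for Gzmm. KN046 against control ran from -0.53 to 0.34 for Gzmc, -0.38 to 1.91 for Gzmd, -0.51 to 0.91 for Gzme, -0.024 to 1.07 for Gzmf and -0.055 to 1.74 for Gzmg. SB525334 against KN046 ran from -0.092 to 0.78 for Gzmc, -0.71 to 1.09 for Gzmd, -1.78 to 0.025 for Gzmf and -1.60 to 0.89 for Gzmg. The combination ran from -0.051 to 0.65 for Gzmk and -0.16 to 0.40 for Gzmm against SB525334, from -0.51 to 0.42 for Gzma against KN046 and from -0.19 to 0.14 for Gzmm against control.

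Depth limits Gzmd to Gzmg most, which had 0 to 47 counts a mouse outside the combination group.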
